A study of Mus musculus with 8 samples.

Results

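The miR-132/miR-212 cluster consists of the microRNAs miR-132 and miR-212, which are cut from neighbouring hairpins of a single primary transcript. Every row for either miRNA was taken, which gave 4 of the 452 mature arms in the first deposited table (both arms of each miRNA) and 2 of the 371 hairpin genes in the second (Mir132 and Mir212). Counted as miRNAs, the cluster was 2 of the 196 present in both tables, and both members were among the 183 that passed the filter on low values. Small RNA had been sequenced from mouse bone marrow-derived macrophages grown for 3 days with M-CSF, the macrophage growth factor, at the equivalent of 20 ng/ml. There were 4 groups: RBP-J knockout cells (labelled Rbpjf/f; LysM Cre) with 24 h of the inflammatory cytokine TNF, the same knockout cells without stimulation, wild-type cells with TNF, and wild-type cells without stimulation. All came from mice of a C57BL/6/129 mix with over 90% C57BL/6. RBP-J binds DNA and carries Notch receptor signals to their target genes. LysM Cre deletes a floxed gene in cells that express lysozyme M, which are mostly myeloid, so other cells of a culture keep it. Small RNA libraries do not measure the Rbpj transcript, so the deletion itself was not checked here. The labels do not say whether the wild-type cells carried Cre or whether replicates were separate animals or cultures, so p-values cover only the spread between these libraries, which may be technical. Each group had 2 libraries, 1 in each table.

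A miRNA directs the Argonaute complex to messenger RNAs that pair with its seed, bases 2 to 8 counted from the 5′ end, and lowers their output. The miR-132/miR-212 cluster is best known from neurons, where the transcription factor CREB switches it on with activity. In macrophages and other immune cells it is induced by microbial and inflammatory stimuli, and acetylcholinesterase, an enzyme that breaks down the anti-inflammatory transmitter acetylcholine, is a known target of miR-132.

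The mature sequences are shown because the 3p arms of the members share a seed and the 5p arms do not. They were taken from RefSeq (GRCm38.p6), which held both hairpins and all 4 arms, and capitals mark the seed.
miR-132-3p: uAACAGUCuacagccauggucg
miR-212-3p: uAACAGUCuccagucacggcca
miR-132-5p: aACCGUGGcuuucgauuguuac
miR-212-5p: aCCUUGGCucuagacugcuuacu
The 3p arms carry one seed, and among the 1738 mature mouse miRNAs of the RefSeq table no other miRNA carried it. They were identical over the first 9 bases and at 17 of 22 positions in all. Counted from the 5′ end, the differences from miR-132-3p to miR-212-3p were A10C, C14U, U17C, U20C and G22A. The 5p arms have different seeds, each found in no other mature miRNA of the table, and matched at 9 of 22 positions. With 5 differences in 22 bases, the 3p arms are not near-identical copies.

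The hairpins are shown in full, with the arms in capitals, to place the arms in the genes that the second table counted.
Mir212: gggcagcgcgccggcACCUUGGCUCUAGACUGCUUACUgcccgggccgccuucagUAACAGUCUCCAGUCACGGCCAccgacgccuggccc
Mir132: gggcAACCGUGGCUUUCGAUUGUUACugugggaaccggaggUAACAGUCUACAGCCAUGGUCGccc
On GRCm38 chromosome 11, plus strand, Mir212 (ENSMUSG00000065590) spans 75173388 to 75173478, which is 91 bases, and Mir132 (ENSMUSG00000065537) spans 75173682 to 75173747, which is 66 bases. The gap between them is 203 bases. GENCODE M21 places both in the first intron of the noncoding transcript 1700016P03Rik, between exon 1 and exon 2. The nearest coding genes it annotates are Hic1, a transcriptional repressor gene, on one side, and Ovca2 and Dph1 on the other, all 3 on the minus strand.

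**Figure D1:**
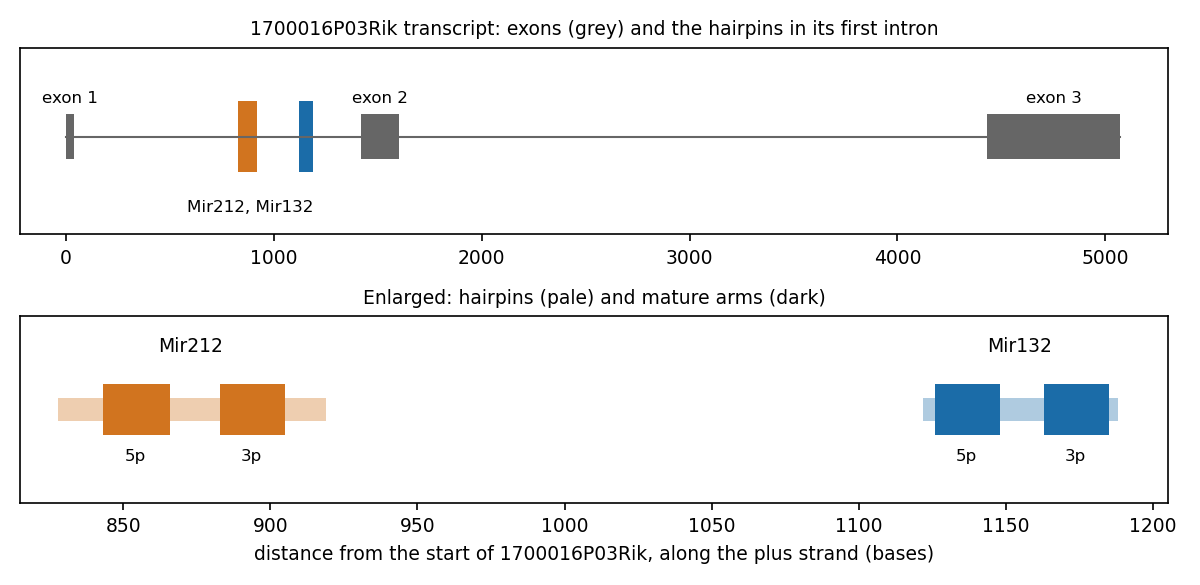
The host transcript and the hairpins, drawn to scale as distance in bases from the start of 1700016P03Rik along the plus strand. Grey blocks in the upper map are exons, the lower map enlarges the hairpins (pale) with their arms (dark), and Mir212 lies upstream of Mir132 with 203 bases between them.

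The first table gave CPM, in which each library is scaled to the same sum over miRNAs. Its libraries held 321327 to 848651 reads, so that 1 read was worth 1.18 to 3.11 CPM. The second was read as RPKM, in which reads are divided by the length of the hairpin and by the total of the library. Its libraries held about 13574377 to 21712254 reads, of which the listed miRNAs took 53.17% and 44.63% in the knockout with and without TNF, and 65.67% and 49.98% in wild type with and without TNF. Contrasts were taken only within a table. By CPM the library of wild type without stimulation stood apart. The SD across miRNAs of its log2 ratio to the other 3 was 1.54, against 1.06 to 1.17 for those. Myeloid markers (7 of 7 listed: miR-223, miR-142a, miR-155, miR-146a, miR-22, miR-21a and miR-27a) made up 17.9% to 21.9% of the listed CPM and 41.3% to 52.1% of the listed RPKM. In these sums miR-21a alone had 48455 to 92850 CPM and 969520 to 1280400 RPKM. By comparison, miR-223 had 989 to 4522 CPM and 33103 to 49044 RPKM. The share is therefore no measure of how pure the myeloid cells were.

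Both miRNAs were scarce in these macrophages. In the CPM table miR-132, both arms summed, took ranks 105 to 157 of 329 miRNAs over the 4 libraries, and miR-212 took ranks 148 to 197. In the RPKM table miR-132 took ranks 107 to 129 of 350, and miR-212 ranks 133 to 160. miR-132 made up 0.00212% to 0.0193% of the listed CPM and 0.00357% to 0.00782% of the listed RPKM.

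In the CPM table miR-132 stood at 21.2 CPM in the knockout with TNF, 70.8 CPM in the knockout without stimulation, 49.8 CPM in wild type with TNF and 193 CPM in wild type without stimulation. These are 18, 25, 28 and 62 reads. miR-132 was thus highest in wild type without stimulation, where the 95% Poisson interval of 148 to 247 CPM did not reach those of the other 3, whose neighbours in order overlapped. These intervals, like all below, cover counting error only, since reads without molecular identifiers are not independent molecules. miR-212 stood at 8.25, 14.2, 17.8 and 43.6 CPM in the same order of libraries, from 7, 5, 10 and 14 reads. The library order differed from that of miR-132 only in the middle, and the intervals of neighbouring libraries all overlapped for miR-212.

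In the RPKM table miR-132 stood at 337 RPKM in the knockout with TNF, 195 RPKM in the knockout without stimulation, 593 RPKM in wild type with TNF and 205 RPKM in wild type without stimulation. These are 302, 191, 757 and 293 reads. Here the wild-type TNF library was the highest and the unstimulated libraries of both genotypes were the lowest, with overlapping intervals between these last (168 to 225 RPKM in the knockout and 182 to 230 RPKM in wild type). miR-212 stood at 115, 51.7, 245 and 68.8 RPKM in the same order of libraries, from 142, 70, 432 and 136 reads. The order of libraries was the same for both members, and again only the unstimulated libraries had overlapping intervals.

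**Figure D2:**
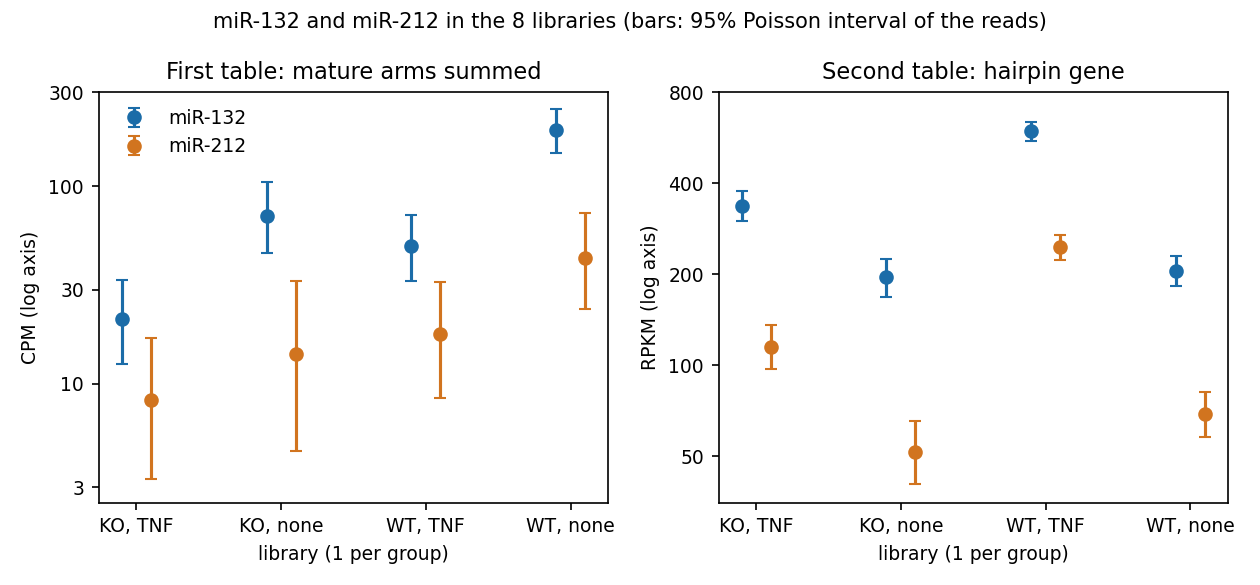
Levels of miR-132 and miR-212 in each library, as CPM (left) and RPKM (right) on log axes, with 1 library per group and panel (KO, RBP-J knockout; none, no stimulation) and bars for the 95% Poisson interval of the reads. The unstimulated wild-type library is the highest on the left (193 CPM for miR-132) and that of wild type with TNF the highest on the right (593 RPKM).

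The 3p arms gave most of the reads. miR-132-3p had 20.0 CPM in the knockout with TNF, 70.8 CPM in the knockout without stimulation, 44.5 CPM in wild type with TNF and 184 CPM in wild type without stimulation. miR-132-5p had 1.18, 0, 5.34 and 9.34 CPM in the same order, and its 0 of 353138 reads in the unstimulated knockout allows up to 8.5 CPM, the value of 3 reads (the two-sided 95% Poisson interval, which the plot of arms draws, ends at 10.45 CPM). Over the 4 libraries 7 of 133 reads of miR-132 were from the 5p arm, or 5.26% (exact 95% interval 2.14% to 10.5%). For miR-212 this was 11 of 36 reads, or 30.6% (16.3% to 48.1%). The 2 intervals did not overlap, and the share of the 5p arm was thus larger in miR-212 by more than counting error, pooled over libraries. miR-212-3p had 7.07, 8.50, 12.4 and 28 CPM, and miR-212-5p had 1.18, 5.66, 5.34 and 15.6 CPM. Single libraries held 0 to 5 reads of either 5p arm, too few to compare arm use between groups.

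**Figure D3:**
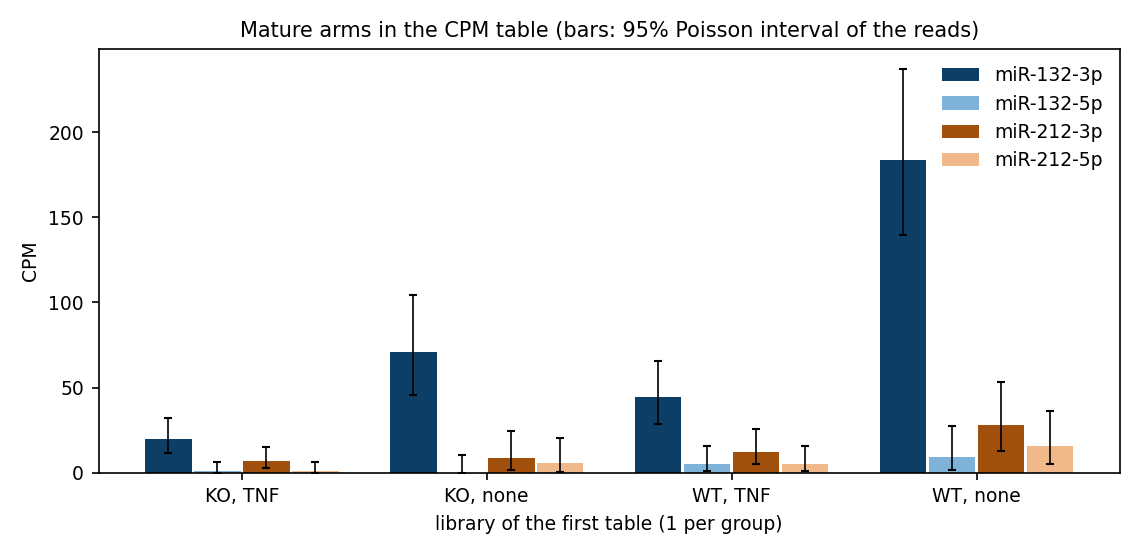
CPM of each mature arm in the 4 libraries of the first table (1 per group; KO, RBP-J knockout; none, no stimulation), with bars for the 95% Poisson interval of the reads. miR-132-3p is the tallest in each library, at 20.0 to 184 CPM, and both 5p arms stay at or below 15.6 CPM.

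Within a library miR-212 was the minor member. It gave 28%, 16.7%, 26.3% and 18.4% of the cluster's reads in the CPM table, for the knockout with TNF, the knockout without stimulation, wild type with TNF and wild type without stimulation. In the RPKM table it gave 32.0%, 26.8%, 36.3% and 31.7%. TNF libraries thus had the larger miR-212 share in both genotypes and both tables. The exact 95% intervals overlapped in each pair, narrowest for wild type in the RPKM table (33.6% to 39.1% with TNF and 27.3% to 36.3% without). These shares are of reads and are not scaled to hairpin length.

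The first question of the study was which miRNAs TNF induces. For this cluster the tables gave opposite directions in both genotypes. In the knockout miR-132 was at 21.2 CPM with TNF and 70.8 CPM without, a ratio of 0.300 (exact 95% counting interval 0.154 to 0.572), but at 337 RPKM with TNF and 195 RPKM without, a ratio of 1.74 (1.44 to 2.09). In wild type its ratio with TNF to without was 0.258 (0.159 to 0.409) by CPM and 2.90 (2.53 to 3.33) by RPKM. Each of these 4 intervals lies wholly on its own side of 1. An interval of this kind compares 2 libraries and not the conditions.

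miR-212 had the same split. Its ratio with TNF to without was 0.583 (0.159 to 2.33) by CPM and 2.23 (1.66 to 3.01) by RPKM for the knockout. For wild type it was 0.408 (0.162 to 0.988) and 3.57 (2.93 to 4.36). In the knockout the 7 and 5 reads of the CPM table could not show a direction. Of all 183 tested miRNAs 36.6% were lower by CPM and higher by RPKM with TNF in both genotypes, so these opposite directions are frequent in the tables.

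Within its table each member was set against the other miRNAs, since the medians of the tables also differed. The median log2 fold change with TNF over the 183 miRNAs was -0.41 in the knockout and -0.61 in wild type by CPM, and 0.30 and 0.39 by RPKM. On that log2(value + 1) scale miR-132 had -1.69 and -1.93 by CPM and 0.79 and 1.53 by RPKM, for the knockout and wild type. It therefore lay on the outer side of the median each time. miR-212 had -0.71 and -1.25 by CPM, and 1.14 and 1.82 by RPKM, where only 2 of the 183 had a larger TNF value in wild type and 26 in the knockout. By CPM miR-212 was less extreme, with 69 of the 183 below it in the knockout and 61 in wild type. After rescaling each library to its listed miRNAs, the RPKM values with TNF were still positive, at 0.51 (knockout) and 1.11 (wild type) for miR-132 and 0.82 and 1.36 for miR-212. With median-of-ratios scaling the CPM values were still negative, at -1.17 and -1.28 for miR-132 and -0.22 and -0.61 for miR-212. The direction in each table was thus the same under the deposited and both other scalings.

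Fitted over both tables, neither member had a TNF difference beyond the spread between tables. In limma the log2 fold change of miR-132 was -0.45 ± 0.99 in the knockout (moderated SE; adjusted p = 0.986) and -0.20 ± 0.99 in wild type (adjusted p = 0.978). That of miR-212 was 0.21 ± 0.97 in the knockout (adjusted p = 0.991) and 0.29 ± 0.97 in wild type (adjusted p = 0.959). Averaged over genotypes they were -0.33 ± 0.70 and 0.25 ± 0.69. For TNF in the knockout limma called 0 of 183 miRNAs (0.0%), 16 had an unadjusted p under 0.05 (8.74%), edgeR called 1 and DESeq2 4. For TNF in wild type the count was 0 (0.0%), with 12 at an unadjusted p under 0.05 (6.56%) and 0 in both other tools. For TNF averaged it was 0 (0.0%), with 26 at an unadjusted p under 0.05 (14.2%), 4 in edgeR and 7 in DESeq2. Single libraries decided these values: without the CPM library of wild type without stimulation the TNF value in wild type was 1.24 for miR-132, and without the RPKM library of that group it was -1.65 and limma called 8 miRNAs for TNF in wild type and 23 for TNF averaged. Without the CPM library of TNF-treated knockout cells the value of miR-132 in the knockout was 0.66, and without the RPKM one it was -1.57. The gap between tables was wider for the cluster than for most miRNAs. The RPKM value less the CPM value with TNF averaged was 2.97 for miR-132 and 2.46 for miR-212, against a median of 0.79, and 11 and 17 of the 183 had a larger one.

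**Figure D4:**
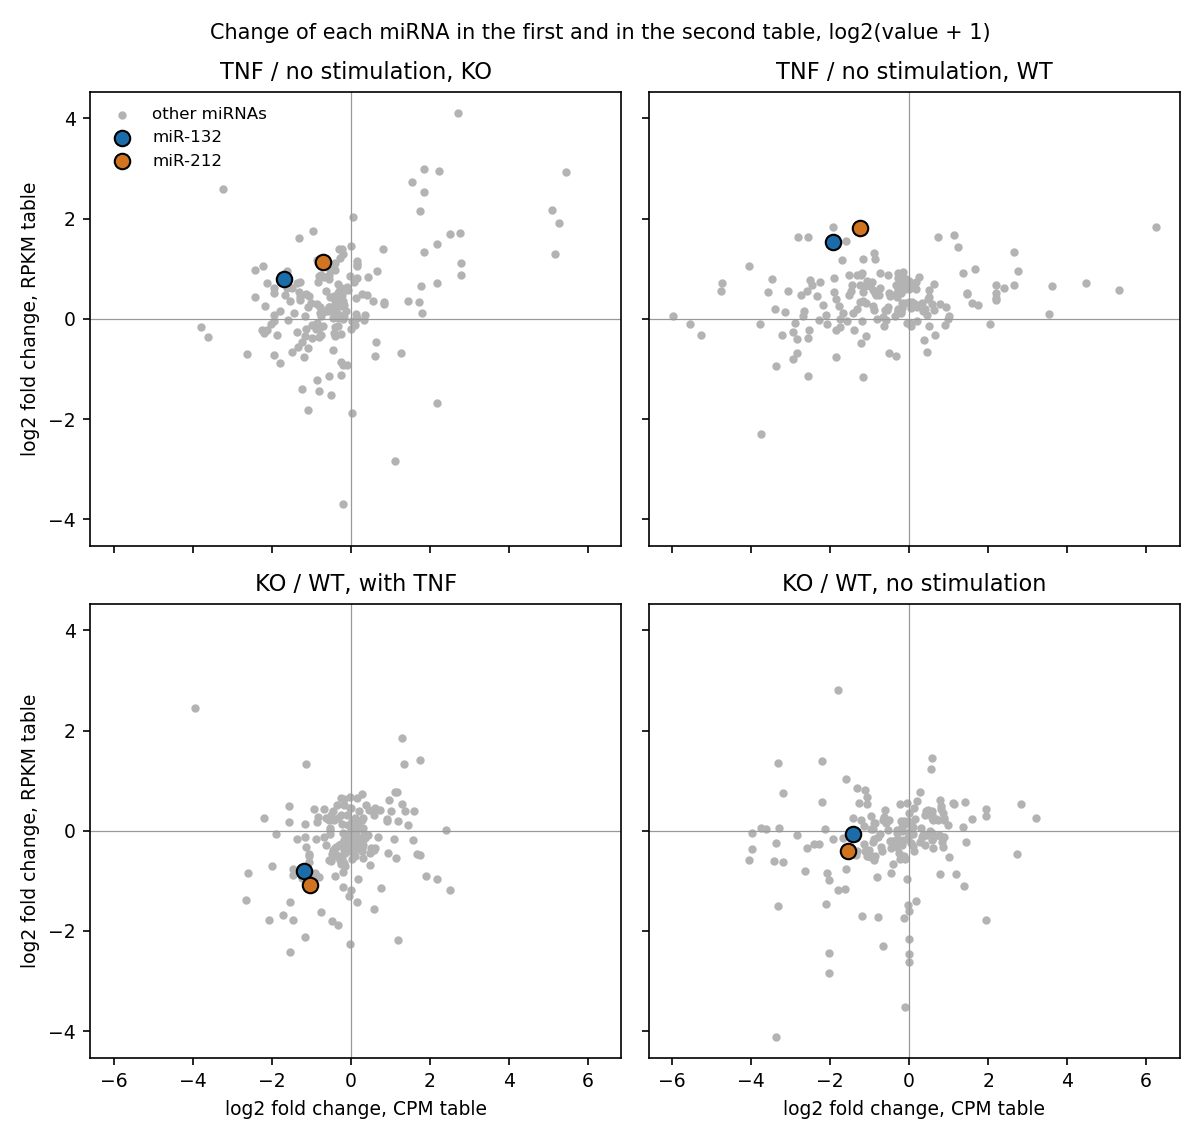
Log2 fold changes on the log2(value + 1) scale in the CPM table (horizontal axis) and the RPKM table (vertical axis) for the 183 tested miRNAs, in 4 comparisons, with miR-132 and miR-212 in colour. Both lie in the upper left with TNF, where the tables differ in direction, and in the lower left for the knockout against wild type with TNF, where both tables are below 0.

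The other question was what depends on RBP-J. With TNF both members were lower in knockout than in wild-type libraries of both tables. miR-132 was at 21.2 CPM in the knockout and 49.8 CPM in wild type, a ratio of 0.426 (0.222 to 0.798), and at 337 RPKM in the knockout and 593 RPKM in wild type, a ratio of 0.568 (0.496 to 0.650). miR-212 was at 8.25 CPM in the knockout and 17.8 CPM in wild type, a ratio of 0.464 (0.150 to 1.35). In the RPKM table it was at 115 RPKM in the knockout and 245 RPKM in wild type, a ratio of 0.468 (0.385 to 0.567). Point values as deposited were thus alike for the 2 members and the 2 tables. The interval included 1 only for miR-212 in the CPM table, from 7 and 10 reads. These ratios have unlike denominators, since CPM is scaled to the miRNAs and RPKM to all reads of a library. Relative to the listed miRNAs the RPKM ratios were 0.702 (0.612 to 0.803) for miR-132 and 0.578 (0.475 to 0.701) for miR-212. They were thus nearer to 1 and less like the CPM ratios of 0.426 and 0.464. All 8 values under the 2 other scalings were below 0 on the log2 scale. Among all 183 miRNAs, 38.3% were lower in the knockout with TNF in both tables.

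Without stimulation the difference between genotypes was larger by CPM than by RPKM. miR-132 was at 70.8 CPM in the knockout and 193 CPM in wild type, a ratio of 0.367 (0.221 to 0.592). In the RPKM table it was at 195 RPKM in the knockout and 205 RPKM in wild type, a ratio of 0.950 (0.788 to 1.14) that turned to 1.06 (0.882 to 1.28) relative to the listed miRNAs. For miR-212 the ratios were 0.325 (0.0916 to 0.955) by CPM and 0.750 (0.554 to 1.01) by RPKM. The wild-type library behind these CPM ratios is the one that stood apart. As deposited, both members were lower in the knockout in both tables, as were 39.3% of the 183 miRNAs without stimulation and 18.6% under both treatments.

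In limma none of these differences passed. With TNF the log2 fold change of the knockout against wild type was -1.0 ± 0.99 for miR-132 and -1.06 ± 0.97 for miR-212 (adjusted p = 0.9996 each). Without stimulation it was -0.75 ± 0.99 (adjusted p = 0.913) and -0.98 ± 0.97 (adjusted p = 0.856). Averaged over treatments it was -0.88 ± 0.70 (adjusted p = 0.917) and -1.02 ± 0.69 (adjusted p = 0.857). The groups share 1 estimate of the spread, which is that between the tables. For the knockout with TNF limma called 0 of 183 (0.0%), with 4 at an unadjusted p under 0.05 (2.19%) and 0 in edgeR and DESeq2. Without stimulation it called 0 (0.0%), with 5 at an unadjusted p under 0.05 (2.73%) and 0 in both other tools. Averaged over treatments it called 1 (0.546%), which was miR-151 and no member of the cluster, with 14 at an unadjusted p under 0.05 (7.65%), 1 in edgeR and 2 in DESeq2. When the knockout TNF library of the CPM table was left out, the value of miR-132 for the knockout with TNF became 0.11, and without that table's library of unstimulated wild type the values without stimulation became 0.69 for miR-132 and 0.22 for miR-212.

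Whether TNF acted differently in the 2 genotypes was tested as an interaction, the TNF effect in the knockout less that in wild type. It was -0.25 ± 1.41 for miR-132 and -0.07 ± 1.37 for miR-212 (limma, adjusted p = 0.988 each). Within tables the values were 0.24 and 0.53 by CPM but -0.74 and -0.68 by RPKM, and so again on opposite sides. The medians over all 183 miRNAs were on opposite sides too, at 0.20 by CPM and -0.14 by RPKM. By CPM miR-132 lay at the middle, with 92 of the 183 below it and 90 above. limma called 0 of 183 (0.0%), with 0 at an unadjusted p under 0.05, and edgeR and DESeq2 called 0.

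**Figure D5:**
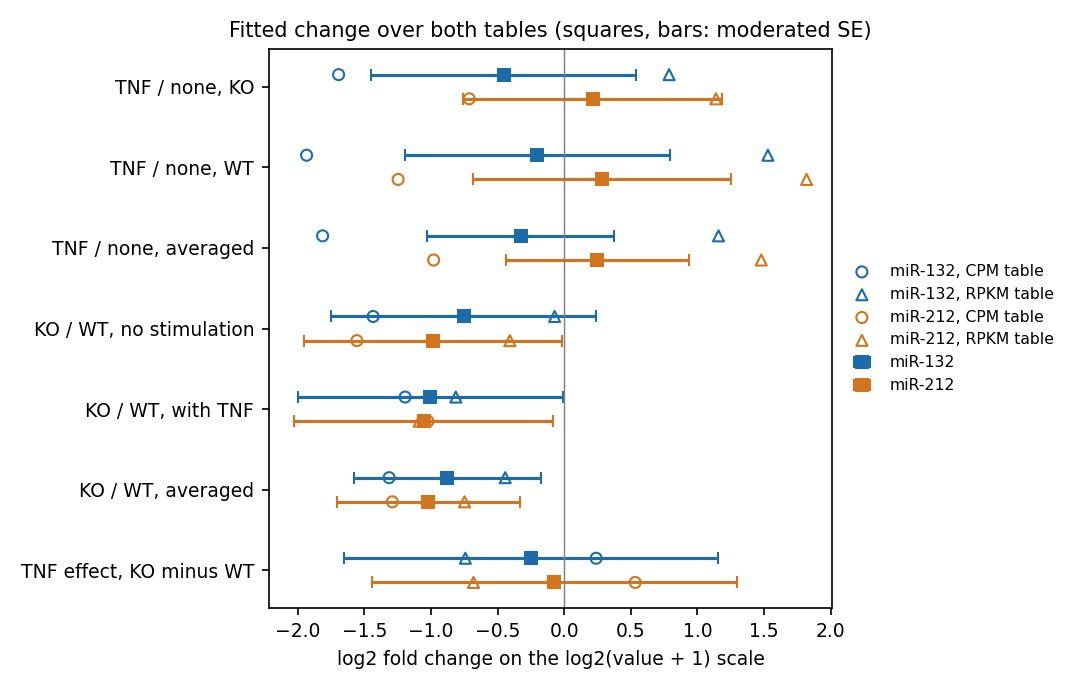
Log2 fold changes on the log2(value + 1) scale for miR-132 and miR-212 in 7 comparisons: squares with bars are the limma fit over both tables with its moderated SE, open circles the CPM table and open triangles the RPKM table. Circles and triangles lie on opposite sides of 0 for TNF in either genotype and both below 0 for the knockout against wild type, except that the RPKM value of miR-132 without stimulation turns above 0 when scaled to the listed miRNAs, and the fit with TNF is -1.0 for miR-132 and -1.06 for miR-212.

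Likeness of pattern was measured by Pearson's r over the 8 libraries, on log2(value + 1) centred within each table. The 5 miRNAs most like miR-132 were miR-1947 (r = 0.959), miR-29b (0.957), miR-23a (0.956), miR-342 (0.953) and miR-212 (0.930). Those most like miR-212 were miR-29c (0.936), miR-132 (0.930), miR-99a (0.929), miR-671 (0.918) and miR-29b (0.910). The members of the cluster were thus in each other's lists, though in neither at the top. miR-342, which is abundant in lymphocytes and myeloid cells, had 960, 2959, 1360 and 7718 CPM in the knockout with TNF, the knockout without stimulation, wild type with TNF and wild type without stimulation. In the RPKM table it had 11584, 7584, 17554 and 10331 RPKM. All these miRNAs share the libraries and their scaling, so r is a description only.

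Most of a list of miRNAs known to respond to TNF or to NF-kB, its main transcription factor, differed in 1 direction in both tables. The list was chosen with earlier results of these data known, so its counts and medians are a description only. Of 15 tested (18 in the list), 7 were higher and 5 lower by both measures in TNF-treated knockout cells, against 21.3% and 25.7% of all 183. In TNF-treated wild-type cells 8 were higher and 2 lower, against 24.6% and 16.9%. The split seen for miR-132 and miR-212, lower by CPM and higher by RPKM, was shown by 2 of the 15 in the knockout and 4 in wild type, against 47.0% and 52.5% of all. None of the 15 passed in limma. The median log2 fold change was 0.47 in the knockout and 0.39 in wild type, against -0.10 and -0.08 over all. The most abundant member is miR-21a, broadly raised in inflammation, with 0.15 ± 0.30 in the knockout and 0.59 ± 0.30 in wild type. The cell cycle regulator miR-222 had 1.10 ± 0.36 and 0.98 ± 0.36, and miR-99b had 0.96 ± 0.48 and 1.14 ± 0.48. miR-146a, a brake on NF-kB signalling, had -0.37 ± 0.34 and -0.62 ± 0.34. For the knockout against wild type with TNF, 9 of the 15 were lower in both tables and 1 was higher, against 38.3% and 20.2% of all, with a median of -0.46 against -0.13 over all.

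Neuron-enriched miRNAs were examined because the cluster is also a neuronal one. Of 16 such miRNAs, 5 had CPM values and 10 had RPKM values. Their summed level was 421, 872, 436 and 626 CPM and 2780, 2566, 3122 and 2724 RPKM, for the knockout with TNF, the knockout without stimulation, wild type with TNF and wild type without stimulation. Most of each sum was miR-128, with 374, 841, 340 and 607 CPM and 2313, 2219, 2309 and 1670 RPKM, so the sums describe that miRNA more than the list. miR-9, a neuronal miRNA, was at 0 CPM in wild type without stimulation. It had no row in the RPKM table and was not among those tested, so no TNF direction can be read from it. miR-129 had 33.0, 0, 74.7 and 0 CPM and 69.8, 14.7, 308 and 85.9 RPKM, where a 0 allows up to 3 reads. It was thus higher with TNF throughout, unlike miR-132 and miR-212. Of the 4 tested, the other 3 (miR-128, miR-138 and miR-219a) were lower by CPM and higher by RPKM in TNF-treated knockout cells, as were 47.0% of all 183. In wild type only miR-128 showed that split, against 52.5% of all, while miR-138 was lower and miR-219a higher with TNF by both measures. The CPM directions of miR-138 and miR-219a rest on few reads. In wild type with and without TNF, miR-138 had 1.78 and 15.6 CPM and miR-219a 17.8 and 3.11 CPM. There 1 read was worth 1.78 and 3.11 CPM. For the knockout they were 2.36 and 14.2 CPM and 9.43 and 11.3 CPM, at 1.18 and 2.83 CPM a read.

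Of the marker lists of other cells, the epithelial sum ranked the libraries as miR-132 did in both tables, and the other lists did not. The order was not particular to epithelial markers, since miR-342, a member of the lymphoid list, ranked the libraries in the same way. The 6 epithelial markers, all listed in both tables, summed to 79.0, 181, 87.2 and 314 CPM and to 686, 424, 1110 and 468 RPKM in the same order of libraries as above. Singly, 4 of the 6 were lower by CPM and higher by RPKM with TNF in each genotype, against 47.0% (knockout) and 52.5% (wild type) of all 183. In the knockout 1 was higher and 1 lower by both measures, and in wild type 2 were lower by both. In the CPM table miR-200a and miR-205 were at 0 in the knockout with TNF and miR-203 was at 0 in wild type with TNF. The 4 stromal markers, of which 2 had a row in the CPM table, summed to 42.4, 70.8, 21.3 and 90.2 CPM and to 11761, 3583, 53208 and 17151 RPKM. Epithelial and stromal sums were both highest in wild type without stimulation by CPM and in wild type with TNF by RPKM, as were miR-132 and miR-212. How common this is among all miRNAs was not counted. The CPM library concerned is the one that stood apart, and the stromal sums cover different markers in the 2 tables. Lymphoid markers (3 of 3) summed to 17659, 23753, 15715 and 21757 CPM and to 27331, 25172, 29638 and 23615 RPKM, highest by CPM in the knockout without stimulation. The endothelial and platelet marker miR-126a stood at 9.43, 11.3, 8.89 and 24.9 CPM and at 184, 398, 236 and 275 RPKM, highest by RPKM in the knockout without stimulation and lower with TNF in both genotypes and tables. Its CPM directions rest on few reads, at 1.18, 2.83, 1.78 and 3.11 CPM a read in the same order. Of 3 erythroid markers 1 had a row in the CPM table, miR-486a, at 1282, 1354, 1019 and 3302 CPM. Only the other 2, miR-451a and miR-144, had rows in the RPKM table, at 6.23, 11.3, 5.16 and 5.23 RPKM summed. That sum was highest in the knockout without stimulation, and no erythroid marker was measured in both tables. The part of other cells in the values of the cluster was not tested, and in bulk libraries fewer cells of a type and less RNA per cell cannot be told apart.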

How the data were processed

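Small RNA of 8 libraries (4 groups of 2) was prepared with the Illumina TruSeq small RNA kit, per the labels' protocols. CASAVA 1.8.2 is named in the submitters' processing notes. Which aligner, read counter or build was used is not given in the sources used here. Deposited by the authors were CPM for 452 mature miRNAs (lowest row maximum 5.34 CPM) in 1 table. The other deposited table, for 371 hairpins, names no unit and was read as RPKM made by the authors (reads per hairpin length and library total), since with the hairpin lengths of GENCODE M21 (363 of 371 matched) 94.7% to 95.3% of values under 50 reads were whole reads at a tolerance of 0.1. Of such CPM values, 100% were whole. No RPKM row held a 0, so its floor is unknown.

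Arms and hairpin copies were summed, and names were matched through RefSeq and GENCODE. The test was limma 3.58.1 (R 4.3.3) on log2(value + 1), which understates changes of low miRNAs, over the 183 miRNAs averaging 5 or more, with 4 groups and the table as a block. It was two-sided, with p adjusted by Benjamini-Hochberg and a threshold of 0.05. The script was tested on simulated data. edgeR 4.0.16 and DESeq2 1.42.0 on recovered reads, 2 other scalings, other pseudocounts and filters, the highest arm alone and leaving out each library were alternatives. Column names carry no replicate number, and the table stands for it. In the CPM table the libraries' deviations from their group means had correlations of 0.746 to 0.915, which includes the change of unit. Named miRNAs were mainly the members, the 5 most like each, and up to 4 of the most abundant in each fixed list. Others, such as miR-223, miR-9, miR-151 and the epithelial markers at 0, were named outside this rule. The members and lists were chosen with earlier results of these data known.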

Additional observations from a re-analysis of the deposited data

How the results depend on the processing

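Under the 10 alternatives that kept all libraries, both members kept their direction in every comparison but the interaction, and neither passed in any. The interaction of miR-132 became 0.0566 in edgeR and 0.0249 in DESeq2, and that of miR-212 became 0.103 in edgeR, 0.0263 in DESeq2 and 0.0966 with the highest arm alone; the cause was not tested. The count of called miRNAs was 1 in edgeR and 4 in DESeq2 for TNF in the knockout (limma 0), and 4 and 7 for TNF averaged (limma 0). For the knockout averaged (limma 1) it was 0 with a pseudocount of 10, 0 without the replicate block and 2 in DESeq2. Without the block the value of miR-132 for the knockout with TNF had an SE of 2.26 in place of 0.99, since the change of unit then entered the spread.

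Leaving out 1 library each moved most values across 0. For miR-132 and miR-212, the ranges were -1.57 to 0.66 and -0.58 to 1.01 for TNF in the knockout, -1.65 to 1.24 and -0.92 to 1.49 for TNF in wild type, and -1.05 to 0.40 and -0.35 to 0.85 for TNF averaged. For the knockout they were -2.20 to 0.69 and -2.18 to 0.22 without stimulation, -2.12 to 0.11 and -1.90 to -0.21 with TNF, and -1.60 to -0.16 and -1.62 to -0.42 averaged. For the interaction they were -1.70 to 1.19 and -1.28 to 1.13. Counts of called miRNAs ranged over 0 to 7 (TNF in the knockout), 0 to 8 (TNF in wild type), 0 to 23 (TNF averaged), 0 to 5 (knockout without stimulation), 0 to 4 (knockout averaged) and 0 to 2 (interaction), and were 0 throughout for the knockout with TNF. Each highest count above 0 came when the RPKM library of wild type without stimulation was left out, except that for TNF in the knockout, where it was the RPKM library of wild type with TNF. For the knockout averaged, leaving out the CPM library of wild type with TNF gave 4 too. The 5 to 14 reads of miR-212 in the CPM table limit what those libraries can show.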
